A study of Mus musculus with 48 samples.

Results

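The mRNAs described here encode the aminoacyl-tRNA synthetases of the mouse, 20 cytosolic enzymes or subunits and 16 mitochondrial enzymes, together with Aimp1 and Aimp2, the scaffold proteins of the multi-synthetase complex. These 38 genes were chosen by symbol as members of the family. All 38 were found among the 50600 genes of the count tables, Mars1 under its older symbol Mars, and all 38 were among the 13889 genes with enough counts to be tested.

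Each synthetase attaches an amino acid to the tRNAs that carry its anticodons, and so supplies charged tRNA to the ribosome. Cytosolic enzymes serve the translation of nuclear-encoded mRNAs, whereas most mitochondrial enzymes are products of separate nuclear genes, are translated in the cytoplasm and are then imported to serve translation inside the organelle. Several cytosolic enzymes are held in a large complex by Aimp1, Aimp2 and Eef1e1, and many synthetase genes are known targets of ATF4, the transcription factor of the amino acid response.

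The cells were mPDAC, a line of mouse pancreatic ductal adenocarcinoma whose labels give the background FVB/N x C57BL6 and an age of 8-week-old. There were 3 non-treated (NT) cultures, numbered 1, 2 and 4 and labelled as controls, and 3 cultures, numbered 1, 2 and 3, exposed for 48 h to 50 µM N6L, a pseudopeptide that binds nucleolin. Nuclei and mitochondria were pelleted from each lysate by centrifugation, and poly(A) RNA was then sequenced from an aliquot of the cytoplasm and from the pooled polysomal fractions of a sucrose gradient, which gave 12 libraries in 4 groups of 3. The question was which mRNAs change in amount in the cytoplasm and in their share on polysomes. All cultures are of a single cell line, so the p-values measure the spread between cultures of that line.

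Library totals ranged from 19519911 to 44972333 counts. Of the 7 markers of pancreatic ductal cells, Krt7, Krt8, Krt18, Krt19, Cdh1 and Sox9 were above 10 CPM (each count relative to its library's TMM-scaled total) in every library, while Epcam was at most 0.301 CPM. Of 16 markers of leukocytes, endothelium, fibroblasts, acinar and islet cells, 15 stayed under 3 CPM everywhere and 4 were at 0 in all libraries, and the acinar gene Cela1 lay between 27.6 and 82.7 CPM. The polysomal library of N6L culture 3 stood apart, with a chi-square over its degrees of freedom of 185 against culture 1, where the lowest value between libraries of the same group was 20.7. NT culture 4 also differed from the other NT cultures, by 71.8 to 113.

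As mRNAs, the cytosolic enzymes were the more abundant class. Per kilobase of transcript, the level in NT cytoplasm ranged from 45.3 to 511 CPM per kb for the 20 cytosolic mRNAs, with a median of 92.3, and from 2.02 to 120 CPM per kb for the 16 mitochondrial mRNAs, with a median of 10.1. The ratio of the class medians was 9.16. Apart from Lars2, the mitochondrial leucyl enzyme, the highest mitochondrial mRNA was Tars2 at 29.9 ± 2.77 CPM per kb (SD, n = 3), below Dars, the lowest cytosolic one, at 45.3 ± 7.62 CPM per kb, and the cultures of these 2 genes did not overlap.

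Sars, the seryl enzyme, led the order at 511 ± 25.0 CPM per kb, followed by Nars (asparaginyl) at 419 ± 61.9, Gars (glycyl, used in both compartments) at 332 ± 25.8 and Wars (tryptophanyl) at 244 ± 15.1. The scaffold Aimp1 came next at 181 ± 25.6 CPM per kb, and Aimp2 had 87.0 ± 8.33. The order below the top was weakly resolved, since 28 of the 37 pairs of neighbours overlapped between cultures. At the other end, Mars2, the mitochondrial methionyl enzyme, had 2.02 ± 0.337 CPM per kb over an annotated transcript of 11294 bases, of which 1758 are coding, and its place depends on that length.

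**Figure D1:**
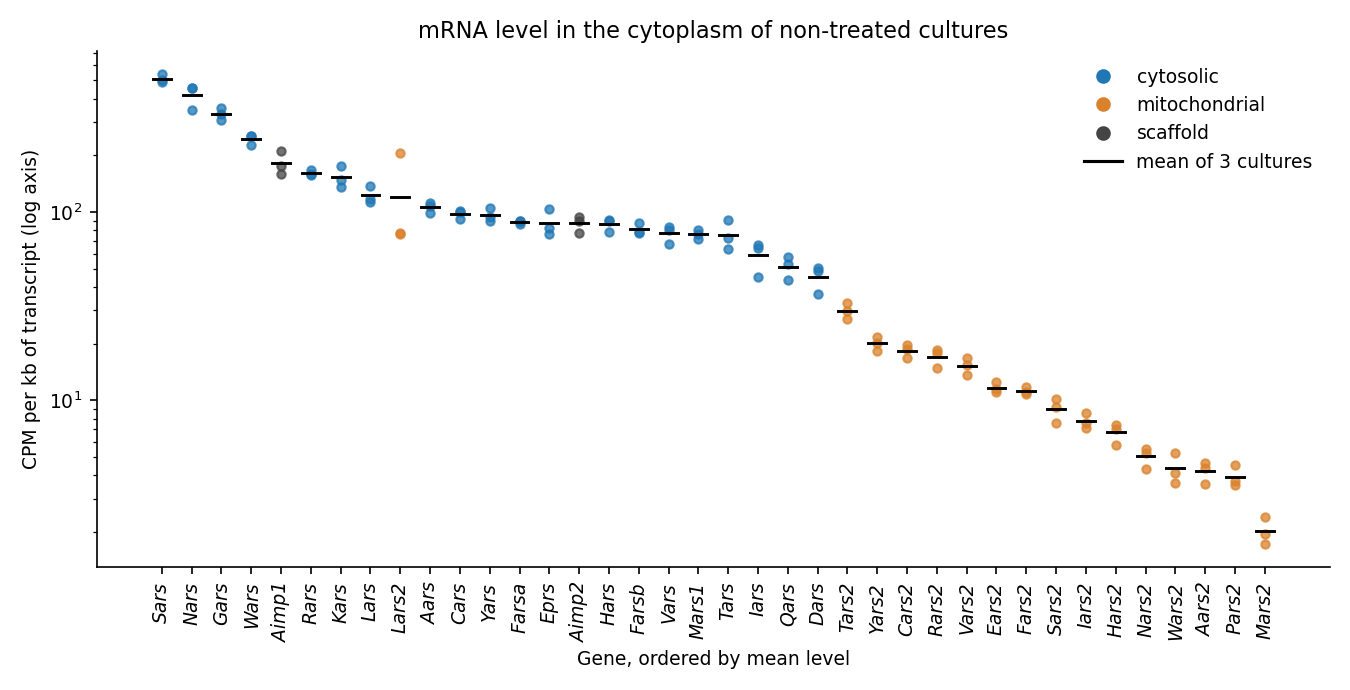
Level of the 38 mRNAs in NT cytoplasm in CPM per kb of transcript on a log axis, with a point for each of 3 cultures and a bar at the mean. The cytosolic mRNAs lie above the mitochondrial ones except for Lars2, whose cultures spread from 76.5 to 204 CPM per kb.

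Lars2 stood apart from the other mitochondrial members in its level and in its spread between cultures. It had 298, 303 and 796 CPM in the NT cytoplasm of cultures 1, 2 and 4, and 160, 163 and 327 CPM in the N6L cytoplasm of cultures 1, 2 and 3. In the polysomes the values were 444, 352 and 877 CPM without treatment and 460, 176 and 432 CPM with N6L. The treatments overlapped in both fractions, and NT culture 4 was highest in each. Its fitted log2 change was the lowest of the family in the cytoplasm, -1.10 ± 0.46 (SE, edgeR adjusted p = 0.0854), and -0.65 ± 0.46 in the polysomes (edgeR adjusted p = 0.395). Without NT culture 4 the cytoplasmic value was -0.50, above those of Aimp1 and Aimp2, and without N6L culture 3 it was -1.53. It passed in 5 of 16 alternatives. Across the 12 libraries, the log2 CPM of Lars2 ran alongside that of Gm15564, a gene without an assigned role, with a Pearson r of 0.96, the third highest of 13888 genes; Gm15564 was singled out after its values were seen. Gm15564 had a median of 92.8 CPM in NT cytoplasm and 30.5 CPM in N6L cytoplasm. No near-identical stretch between their annotated transcripts was found by blastn.

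The summed level of the cytosolic enzymes was lower with N6L in both fractions. In the cytoplasm the sum of the 20 mRNAs was 7094, 6619 and 7002 CPM with N6L against 7905, 8585 and 7429 CPM without, a mean of 6905 ± 252 against 7973 ± 581 (SD, n = 3). In the polysomes it was 7156, 5914 and 5620 CPM with N6L against 8217, 9023 and 7634 CPM without. With these TMM-scaled values the treatments did not overlap in either fraction. The TMM factors were 1.082 to 1.102 in N6L cytoplasm and 0.9435 to 1.014 in NT cytoplasm. Scaled by library totals alone, the cytosolic sums overlap between treatments in both fractions, so that their separation depends on the scaling. For the mitochondrial enzymes without Lars2, the cytoplasmic sum was 409 to 422 CPM with N6L and 447 to 468 CPM without, whereas the polysomal sums, 437 to 477 and 459 to 513 CPM, overlapped. By library totals alone the cytoplasmic sums of these enzymes overlap as well. Counts of mitochondrially encoded genes made up 0.121% to 0.242% of the N6L cytoplasmic libraries and 0.454% to 0.966% of the NT ones, and their part in these sums was not tested. Because these are bulk cultures scaled to the total, fewer cells of a type and less RNA per cell cannot be told apart.

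In the cytoplasm, 5 of the 38 mRNAs passed an adjusted p of 0.05 and all 5 were lower with N6L: the scaffolds Aimp1 and Aimp2, the cytosolic enzymes Sars and Yars (tyrosyl) and the mitochondrial Yars2. None passed as higher, and 9 had fitted changes above 0. Of all genes tested 28.3% passed this limit in the cytoplasm, 13.8% lower and 14.5% higher, so that 5 of 38 is not a high share. The median log2 change was -0.22 for the 20 cytosolic enzymes, with 15 below 0, and -0.21 for the 16 mitochondrial enzymes, with 12 below 0, beside 0.04 for all genes tested. Cultures of the treatments did not overlap for 22 members, 17 of them with all N6L values below and 5 with all above, where 25.6% of all genes were entirely below and 29.3% entirely above.

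Aimp1, a scaffold of the complex, had 180, 196 and 236 CPM in the cytoplasm of NT cultures 1, 2 and 4 and 115, 119 and 121 CPM in N6L cultures 1, 2 and 3. Its log2 change was -0.79 ± 0.14 (SE, edgeR adjusted p = 0.00238). Aimp2 had 106, 92.1 and 111 CPM without treatment and 63.6, 53.8 and 61.3 CPM with N6L, a log2 change of -0.79 ± 0.18 (SE, edgeR adjusted p = 0.00755). Every N6L culture was below every NT culture for both scaffolds, and both passed in all 16 alternative analyses of this comparison, with log2 changes from -0.87 to -0.52 for Aimp1 and from -0.87 to -0.48 for Aimp2. Exons of Aimp1 overlap those of Tbck on the opposite strand by 163 bases, and those of Aimp2 overlap Eif2ak1 by 487 bases. The third scaffold, Eef1e1 (AIMP3), is not among the 38, and fell by 0.96 ± 0.15 on the log2 scale in the cytoplasm (edgeR adjusted p = 0.00153) and by 0.57 ± 0.15 in the polysomes (edgeR adjusted p = 0.0276).

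Among the enzymes, Yars had 259, 307 and 273 CPM in NT cytoplasm and 218, 188 and 203 CPM in N6L cytoplasm, a log2 change of -0.46 ± 0.15 (SE, edgeR adjusted p = 0.0310). Sars went from 942, 1005 and 913 CPM to 708, 648 and 723 CPM, also by -0.46 ± 0.15 (SE, edgeR adjusted p = 0.0340). Yars2, which charges the mitochondrial tyrosine tRNA, went from 31.8, 28.7 and 34.2 CPM to 20.7, 24.0 and 25.4 CPM, by -0.43 ± 0.14 (SE, edgeR adjusted p = 0.0357). None of these 3 overlapped between treatments. The calls of all 3 were lost without N6L culture 2, NT culture 1 or NT culture 2, each of which left only the scaffolds, and without NT culture 4 the count was 3. Of all genes 9.24%, 16%, 22.4% and 15.5% passed in these fits, in that order. Without N6L culture 3 the count was 8, where 28.7% of all genes passed. After per-library offsets for the length and GC content of transcripts (the length and GC correction) 18 members were lower, and 30.0% of all genes passed.

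The members with the largest fitted increases in the cytoplasm were mitochondrial, and none of them passed the test. Iars2, the mitochondrial isoleucyl enzyme, had 38.9, 46.8 and 41.3 CPM without treatment and 55.4, 55.9 and 56.7 CPM with N6L, a log2 change of 0.41 ± 0.21 (SE, edgeR adjusted p = 0.163). Wars2 had 18.2, 23.2 and 16.1 CPM without treatment and 25.0, 26.2 and 24.4 CPM with N6L, 0.39 ± 0.20 (SE, edgeR adjusted p = 0.141). Hars2 had 24.6, 23.6 and 19.4 CPM and then 27.4, 30.7 and 29.6 CPM, 0.38 ± 0.17 (SE, edgeR adjusted p = 0.106). All N6L cultures lay above all NT cultures for these 3, as for Iars and Tars among the cytosolic enzymes. With the length and GC correction Iars2 was at -0.06, Wars2 at 0.01, Hars2 at 0.13, Iars at -0.09 and Tars at -0.07, and Iars2 passed as higher when only the cytoplasmic groups were fitted. The exons of Iars2 share 2034 bases with Rab3gap2 on the opposite strand.

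In the polysomes, 6 of the 38 mRNAs passed, all lower with N6L. They were the cytosolic Rars, Vars, Yars, Gars and Hars and the scaffold Aimp1. Of all genes 9.67% passed in the polysomes, 3.66% lower and 6.01% higher. The median log2 change was -0.42 for the cytosolic enzymes, with 18 of 20 below 0, and -0.03 for the mitochondrial enzymes, with 10 of 16 below 0, beside 0.00 for all genes tested. None of the 16 mitochondrial mRNAs passed with edgeR or with DESeq2, and none had an unadjusted p under 0.05 with edgeR. All N6L cultures were below all NT cultures for 9 cytosolic enzymes, 2 mitochondrial enzymes and Aimp1, where 11.9% of all genes were, and no member was entirely above.

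Rars, the arginyl enzyme, showed the lowest polysomal change. It had 348, 310 and 280 CPM in the polysomes of NT cultures 1, 2 and 4 and 234, 176 and 96.0 CPM in those of N6L cultures 1, 2 and 3, a log2 change of -0.89 ± 0.23 (SE, edgeR adjusted p = 0.0307). Vars, the valyl enzyme, had 274, 347 and 244 CPM without treatment and 209, 135 and 149 CPM with N6L, a log2 change of -0.81 ± 0.20 (SE, edgeR adjusted p = 0.0224). For both enzymes every N6L value lay below every NT value, in the cytoplasm as well as in the polysomes. Yars had 298, 354 and 339 CPM without treatment and 215, 183 and 239 CPM with N6L, a log2 change of -0.64 ± 0.15 (SE, edgeR adjusted p = 0.0176). Of the 38 members, Yars and Aimp1 were those that passed in both fractions.

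Gars, which provides glycyl-tRNA to the cytosol and the mitochondria alike, had 845, 905 and 870 CPM in NT polysomes and 722, 595 and 487 CPM in N6L polysomes. Its polysomal log2 change was -0.54 ± 0.15 (SE, edgeR adjusted p = 0.0394), and its cytoplasmic one, with 730, 853 and 790 CPM against 639, 609 and 636 CPM, was -0.33 ± 0.15 (SE, edgeR adjusted p = 0.108). Hars, the histidyl enzyme, went from 209, 217 and 245 CPM to 170, 148 and 158 CPM in the polysomes, a log2 change of -0.49 ± 0.13 (SE, edgeR adjusted p = 0.0331). Aimp1 went from 214, 218 and 210 CPM to 150, 134 and 130 CPM, by -0.63 ± 0.14 (SE, edgeR adjusted p = 0.0136). All 3 genes were without overlap between treatments in both fractions. Kars, the lysyl enzyme that also serves both compartments, had 347, 376 and 432 CPM in NT polysomes and 373, 342 and 356 CPM in N6L polysomes, which overlapped (log2 change -0.11 ± 0.14 (SE), edgeR adjusted p = 0.672).

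**Figure D2:**
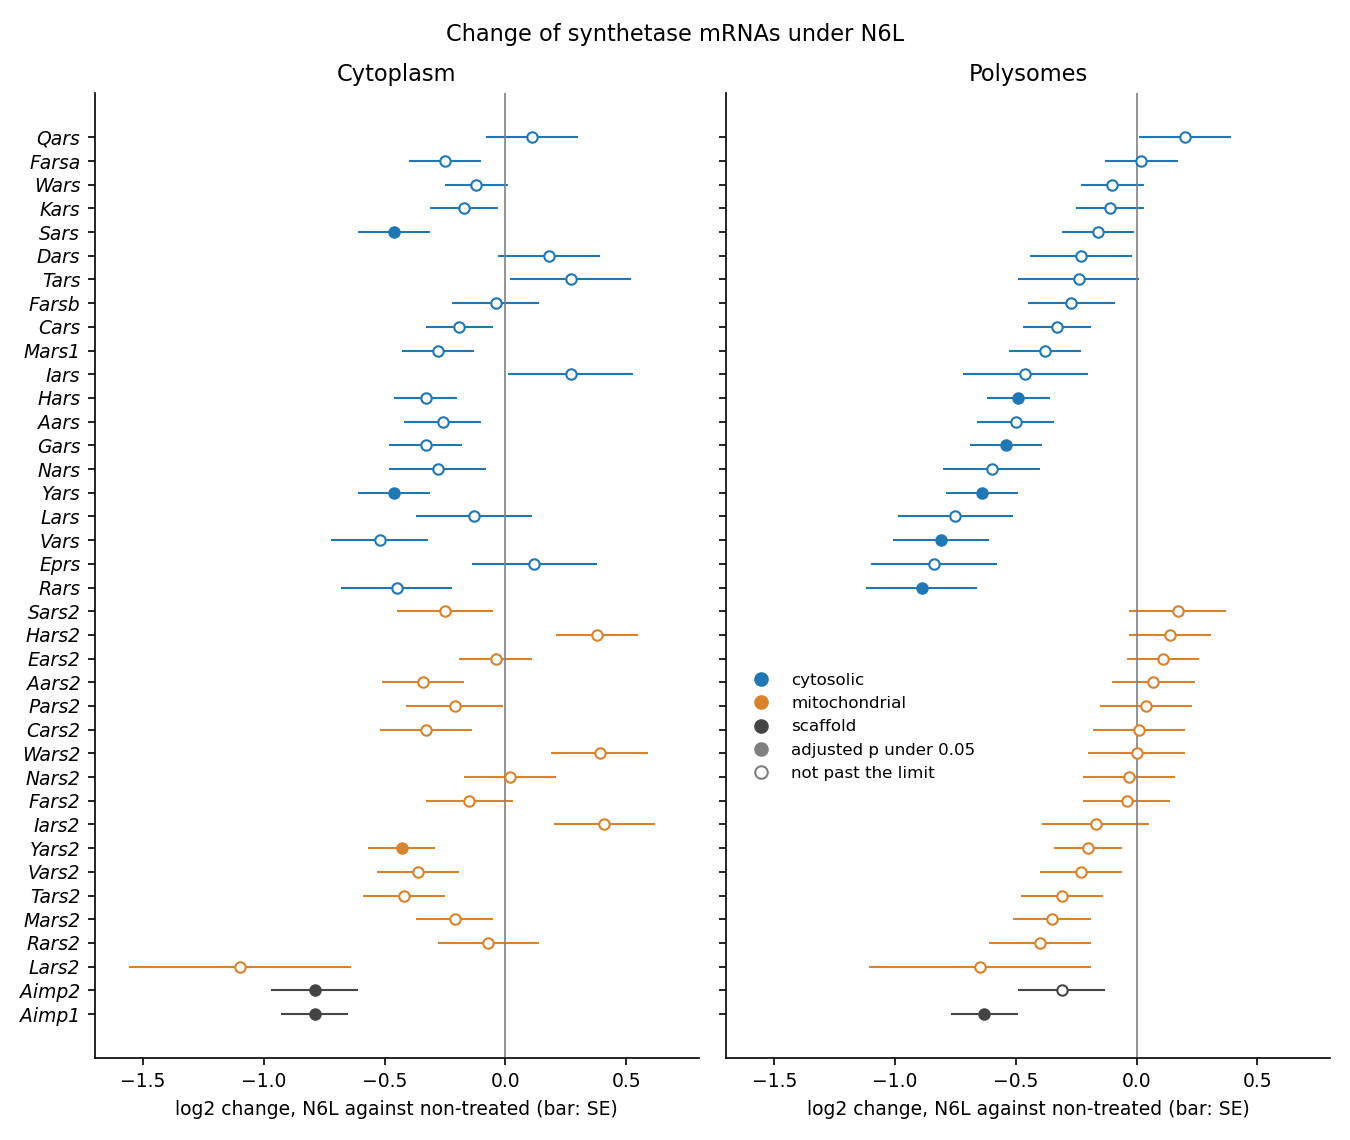
Fitted log2 change under N6L of each member in the cytoplasm and in the polysomes, with its SE, and filled where the adjusted p is under 0.05. In the polysomes 18 of 20 cytosolic enzymes lie below 0 and the mitochondrial enzymes scatter around it with a median of -0.03.

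The polysomal calls were sensitive to single cultures. They numbered 6 with all cultures, 10 without N6L culture 1, 3 without N6L culture 3, 2 without NT culture 4 and 1 without NT culture 2. Of all genes 9.67% passed with all cultures, and 11.2%, 7.77%, 4.44% and 6.77% without each of these, in that order. Without N6L culture 2 or NT culture 1 there were 0 by edgeR, where 1.04% and 1.44% of all genes passed. At an unadjusted p under 0.05 there were 11 and 10 members, beside 2455 of 14019 and 2783 of 14084 genes. DESeq2 called 10 members with all cultures, where 7.84% of 25915 genes passed. The cytosolic median lay between -0.57 and -0.29 whichever culture was left out, and 18 or 19 of the 20 enzymes stayed below 0. After the length and GC correction 16 members were lower, 12 of them cytosolic, 2 mitochondrial (Tars2 and Vars2) and both scaffolds, where 21.4% of all genes passed.

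The 3 highest polysomal log2 changes did not pass. Qars, the glutaminyl enzyme of the complex, had 156, 196 and 119 CPM in NT polysomes and 202, 168 and 172 CPM in N6L polysomes, a log2 change of 0.20 ± 0.19 (SE, edgeR adjusted p = 0.528). Sars2 had 15.2, 18.2 and 21.5 CPM without treatment and 16.4, 19.1 and 26.3 CPM with N6L, 0.17 ± 0.20 (SE, edgeR adjusted p = 0.628). Hars2 had 24.9, 26.7 and 23.4 CPM and then 33.6, 26.4 and 22.5 CPM, 0.14 ± 0.17 (SE, edgeR adjusted p = 0.649). All 3 overlapped between treatments, and leaving out N6L culture 1 turned Hars2 to -0.03 and leaving out N6L culture 3 turned Sars2 to -0.04.

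The polysome-to-cytoplasm ratio within a culture compares the share of an mRNA in the polysomal library with its share in the cytoplasmic one. Each library was scaled to its own total, and the median log2 ratio over all genes lay between -0.02 and 0.06 in every culture. A change of polysome loading common to all mRNAs is therefore not seen in this ratio. The paper describes smaller polysome peaks and less protein synthesis with N6L. In NT cultures no member differed between fractions by edgeR or by DESeq2, where 0.209% of all genes passed by edgeR. With edgeR, 2 of the 38, Hars and Fars2, had an unadjusted p under 0.05, beside 1855 of 13889 genes. In N6L cultures 10 members passed. Lower in the polysomes were Dars, Eprs, Iars and Lars, all cytosolic enzymes of the multi-synthetase complex. Higher in the polysomes were the cytosolic Farsa and Sars, the mitochondrial Cars2, Fars2 and Sars2, and Aimp2. Of all genes 39% passed in N6L cultures, 20.6% lower and 18.4% higher, so that 10 of 38 is below the background. With the culture as a paired replicate block 19 members passed, 10 lower and 9 higher, where 53.7% of all genes did. Without N6L culture 2 or without N6L culture 3 only Eprs passed, where 8.22% and 11.7% of all genes did. With the length and GC correction Eprs and Iars were the calls kept. Dars and Lars were then at -0.36 and -0.30, Farsa at 0.01, Sars at 0.20, Cars2 at 0.13, Fars2 at 0.19 and Sars2 at 0.01, none of which passed. Mars2 and Nars2, at -0.23 and -0.09 before, passed as higher at 1.26 and 0.40. The corrected value of Mars2 depends on its annotated transcript of 11294 bases, of which 1758 are coding. Its uncorrected log2 ratios were -0.18, -0.17 and -0.37 in N6L cultures 1, 2 and 3, and those of Nars2 were 0.16, -0.01 and -0.52.

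Eprs, the fused glutamyl-prolyl enzyme of the cytosol, had the lowest ratio. In the cytoplasm it had 404, 506 and 375 CPM in NT cultures 1, 2 and 4 and 437, 477 and 485 CPM in N6L cultures 1, 2 and 3, and in the polysomes 347, 358 and 308 CPM against 271, 196 and 99.3 CPM. The treatments overlapped in the cytoplasm and were apart in the polysomes. The log2 ratio of polysome to cytoplasm was thus -0.22, -0.50 and -0.28 without treatment and -0.69, -1.28 and -2.29 with N6L. In the fit over N6L cultures, it was -1.30 ± 0.26 (SE, edgeR adjusted p = 0.00502), and Eprs passed this test in all 17 alternatives, from -1.71 to -0.77. Its polysomal change between treatments was -0.84 ± 0.26 (SE, edgeR adjusted p = 0.0580).

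Iars, the cytosolic isoleucyl enzyme, had 285, 297 and 200 CPM in NT cytoplasm and 336, 298 and 311 CPM in N6L cytoplasm, where the treatments were narrowly apart. In the polysomes it had 236, 263 and 158 CPM without treatment and 224, 155 and 97.9 CPM with N6L, which overlapped. Its log2 ratio was -0.27, -0.18 and -0.34 without treatment and -0.58, -0.94 and -1.67 with N6L, fitted as -0.98 ± 0.27 in N6L cultures (SE, edgeR adjusted p = 0.0125). A processed pseudogene, Gm4849, shares 1656 bases with Iars at 96.0% identity and had 0 to 5 counts per library. Lars, the cytosolic leucyl enzyme, had 465, 549 and 450 CPM in NT cytoplasm and 456, 431 and 450 CPM in N6L cytoplasm. In the polysomes it had 474, 508 and 396 CPM and then 402, 252 and 167 CPM, and both fractions overlapped between treatments. Its log2 ratio ran from -0.18 to 0.03 without treatment and was -0.18, -0.77 and -1.43 with N6L.

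**Figure D3:**
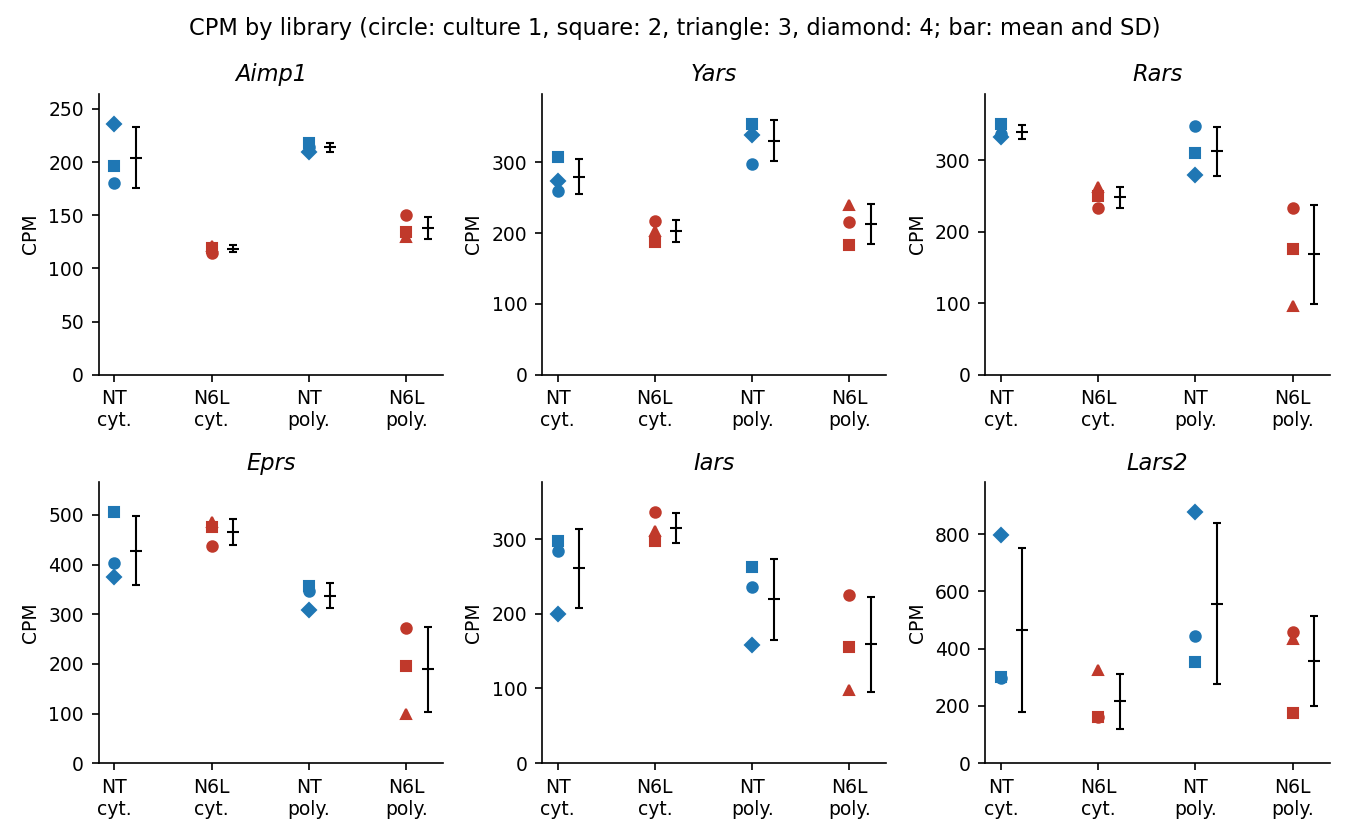
CPM by library for 6 members, with the mean and SD of each group of 3 cultures. For Aimp1, Yars and Rars all N6L cultures lie below all NT cultures in both fractions, for Eprs in the polysomes alone, and for Lars2 in neither.

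The cytosolic enzymes comprise 8 synthetases of the complex (Dars, Eprs, Iars, Kars, Lars, Mars1, Qars and Rars) and 12 others. In the cytoplasm the median log2 change was -0.01 for the complex synthetases, with 4 of 8 below 0, and -0.27 for the others, with 11 of 12 below 0. In the polysomes the medians were -0.42 and -0.41. The median log2 ratio of polysome to cytoplasm of the complex synthetases was -0.07, -0.14 and -0.20 in NT cultures 1, 2 and 4 and -0.09, -0.58 and -1.32 in N6L cultures 1, 2 and 3, so that N6L culture 1 lay within the NT range. For the other cytosolic enzymes it ran from 0.09 to 0.15 without treatment and was 0.10, -0.11 and -0.24 with N6L. Kars and Qars kept ratios above 0 in every N6L culture, from 0.17 to 0.29. The complex transcripts have a median length of 2881 bases and the others 2562. With the length and GC correction the cytoplasmic medians were -0.25 and -0.36, and the median fitted ratio of the complex synthetases in N6L cultures went from -0.63 to -0.33.

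The mitochondrial enzymes had median log2 ratios of 0.01, 0.12 and 0.16 in NT cultures and 0.16, 0.20 and 0.45 in N6L cultures. Single genes lay between -0.31 and 0.58 in the NT cultures, and between -1.26 for Iars2 in culture 3 and 1.53 for Lars2 in culture 1 with N6L. Fars2, the mitochondrial phenylalanyl enzyme, was at 0.46, 0.51 and 0.48 without treatment and 0.21, 0.52 and 0.97 with N6L. Sars2 was at 0.11, 0.08 and 0.17 and then 0.16, 0.57 and 0.83.

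**Figure D4:**
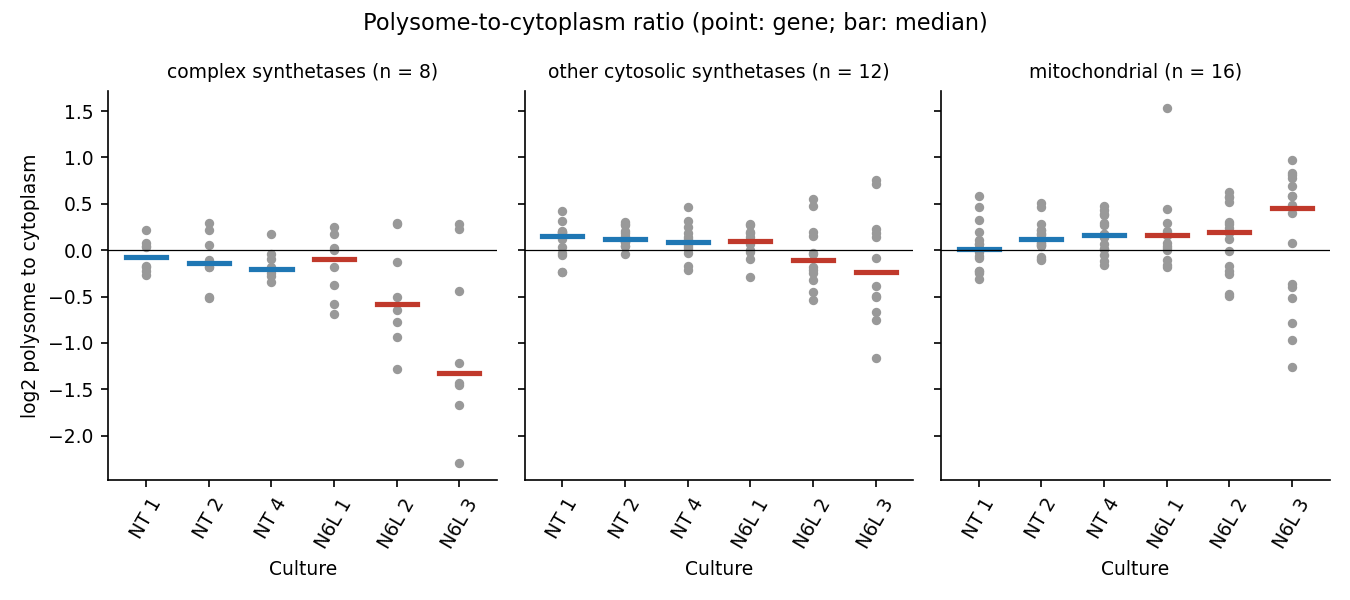
Log2 ratio of polysomal to cytoplasmic CPM in each culture for the complex synthetases, the other cytosolic synthetases and the mitochondrial synthetases, with a point for each gene and a bar at the median. N6L culture 3 shows the widest spread in all 3 panels, and the complex synthetases reach a median of -1.32 there.

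The translational index was taken as the polysomal log2 change minus the cytoplasmic one. By edgeR and by DESeq2, 0 of the 38 members passed, and 0% of all genes did. With edgeR and no block, Eprs alone had an unadjusted p under 0.05, of 0.0203, where 1074 of 13889 genes did. Without a filter on low counts Eprs was the single member to pass, where 0.44% of 25915 genes did. With the culture as a paired replicate block 5 members had an unadjusted edgeR p under 0.05, beside 2996 of 13889 genes. They were Iars (0.0107), Eprs (0.0113), Lars (0.0298), Iars2 (0.0393) and Aimp2 (0.0487), and none passed after adjustment. The lowest values were -0.96 ± 0.37 for Eprs, -0.73 ± 0.37 for Iars and -0.61 ± 0.34 for Lars, and the highest were 0.49 ± 0.25 for Aimp2, 0.46 ± 0.65 for Lars2 and 0.42 ± 0.28 for Sars2 (SE; edgeR adjusted p from 0.555 to 0.757). The median index was -0.22 for the cytosolic enzymes, with 15 of 20 below 0, and 0.12 for the mitochondrial enzymes, with 6 of 16 below 0, beside 0.01 for all genes. Without N6L culture 3 these medians were -0.14 and 0.00, with 8 of 16 mitochondrial enzymes below 0, and without N6L culture 1 the cytosolic median was -0.35. The mitochondrial median was 0.20 without N6L culture 2 and 0.07 without NT culture 1. In N6L cultures the ratio lay entirely below that of NT cultures for 6 members, namely Eprs, Hars, Iars, Vars, Iars2 and Wars2, and entirely above for Kars, where 14.4% and 15.3% of all genes did.

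For Aimp2, the member with the highest index, the cytoplasmic change passed and the polysomal one did not. The polysomal values were 95, 108 and 120 CPM without treatment and 73.0, 75.3 and 114 CPM with N6L, which overlapped, and the log2 change there was -0.31 ± 0.18 (SE, edgeR adjusted p = 0.299). Its ratio in N6L cultures, 0.55 ± 0.18 on the log2 scale (SE, edgeR adjusted p = 0.0277), turned to -0.05 with the length and GC correction.

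The index was lower for longer transcripts, across the whole table and among the members. Over 13867 genes the Spearman correlation of transcript length with the index was -0.53, and over the 38 members it was -0.51. Genes are not independent replicates, and all of these values come from the same 12 libraries. With the length and GC correction the correlations were -0.07 and -0.09. Within the classes it went from -0.60 to -0.43 over the 20 cytosolic members and from -0.36 to 0.39 over the 16 mitochondrial ones. For the cytoplasmic change the correlation with length was 0.50 over all genes and 0.35 over the members. Eprs has a transcript of 4906 bases, Iars of 4426, Lars of 3980 and Aimp2 of 1185. Corrected, the index was -0.63 for Eprs, -0.45 for Iars, -0.36 for Lars and 0.15 for Aimp2, and the class medians were -0.20 for cytosolic and 0.01 for mitochondrial enzymes.

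For most amino acids a cytosolic and a mitochondrial enzyme can be set side by side. Among 17 such pairs, which count Eprs with Ears2 and Pars2 and count Farsa and Farsb with Fars2, the cytosolic log2 change was below the mitochondrial one in 10 pairs in the cytoplasm and in 15 pairs in the polysomes. The median difference was -0.07 in the cytoplasm and -0.33 in the polysomes. In the polysomes the difference ran from -0.94 for Eprs and Ears2 to 0.07 for Tars and Tars2. The same counts were 13 and 15 after the length and GC correction.

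**Figure D5:**
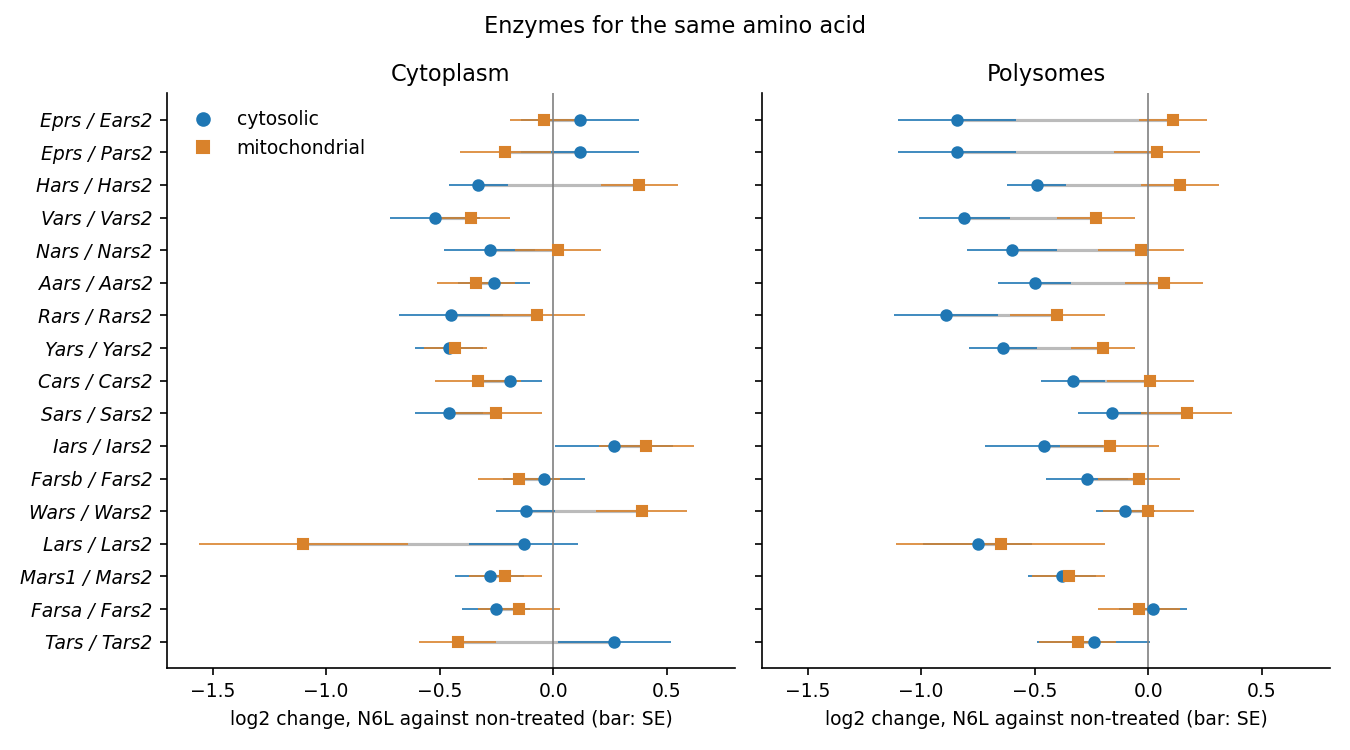
Fitted log2 change under N6L, with its SE, of the cytosolic and the mitochondrial enzyme for the same amino acid, in the cytoplasm and in the polysomes, ordered by their difference in the polysomes. In the polysomes the cytosolic enzyme is to the left in 15 of 17 pairs, and in the cytoplasm in 10.

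The pairs that differed most in the cytoplasm were leucyl and histidyl. The ratio of Lars to Lars2 CPM was 1.56, 1.81 and 0.56 in NT cytoplasm and 2.85, 2.65 and 1.38 in N6L cytoplasm, which overlapped. The ratio of Hars to Hars2 went from 6.34, 7.6 and 9.21 to 5.12, 4.21 and 4.69 in the cytoplasm, and from 8.38, 8.10 and 10.47 to 5.05, 5.63 and 7.01 in the polysomes, without overlap in either fraction. Both pairs were chosen from the 17 for this difference, so their values are a description without a test. Hars and Hars2 are neighbours on opposite strands whose exons share 195 bases, and the strand setting of the counting is not given in the sources used here.

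By structural class, the 18 class I enzymes had a median log2 change of -0.20 in the cytoplasm and -0.34 in the polysomes, and the 17 class II enzymes -0.25 and -0.16. Eprs holds a domain of each class and was left out of both.

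Of 25 other genes of tRNA charging and delivery, 10 were lower and 1 was higher with N6L in the cytoplasm, and 3 were lower and 0 higher in the polysomes, beside 13.8% of all genes lower and 14.5% higher in the cytoplasm and 3.66% lower in the polysomes. Among the lower ones, and named after their values were seen, were the peptidyl-tRNA hydrolase Ptrh2 (log2 change -1.14 ± 0.18, SE) and the elongation factor subunits Eef1b2 (-0.82 ± 0.15), Eef1d (-0.91 ± 0.18) and Eef1g (-0.95 ± 0.17), with edgeR adjusted p-values from 0.00177 to 0.00407. The subunit Eef1a1, at 7497 CPM in NT cytoplasm, was not among them (-0.03 ± 0.18, edgeR adjusted p = 0.905). Tarsl2, a threonyl synthetase paralog, was the higher one, at 13.99 CPM without treatment and 23.3 CPM with N6L in the cytoplasm (log2 change 0.74 ± 0.20, SE, edgeR adjusted p = 0.0168).

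Of 29 genes known as targets of ATF4 in amino acid supply and stress, ATF4 itself included, 12 were lower and 1 was higher in the cytoplasm, and 4 were lower and 1 higher in the polysomes, with median log2 changes of -0.47 and -0.21. The shares of all genes were 13.8% lower and 14.5% higher in the cytoplasm, and 3.66% and 6.01% in the polysomes. The higher one was Atf3, a stress-induced transcription factor, with log2 changes of 1.44 ± 0.29 and 1.52 ± 0.29 (SE, edgeR adjusted p = 0.00465 and 0.00769). Asns, the asparagine synthetase, fell by 0.47 ± 0.15 on the log2 scale in the cytoplasm (SE, edgeR adjusted p = 0.0310) and by 0.52 ± 0.15 in the polysomes (SE, edgeR adjusted p = 0.0418). Atf4 mRNA itself was at 2241 CPM in NT cytoplasm and 2255 CPM in N6L cytoplasm (log2 change 0.01 ± 0.16, SE, edgeR adjusted p = 0.973). In the polysomes it was at 2849 CPM without treatment and 3500 CPM with N6L (0.30 ± 0.16, edgeR adjusted p = 0.259). Its log2 ratio of polysome to cytoplasm was 0.63 ± 0.16 in N6L cultures (edgeR adjusted p = 0.00987), where 18.4% of all genes passed as higher. In NT cultures that ratio was 0.35 ± 0.16 (edgeR adjusted p = 0.372), and the index of Atf4 did not pass (edgeR adjusted p = 0.592).

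The letters TGATGNAA, the core bound by ATF4 with a C/EBP partner in amino acid response elements, were searched on both strands in windows of 300 bases, 250 before to 50 after the RefSeq start. Of the 29 members with a window, 5 held them (17.2%), against 4.51% of 27025 genes. All 5 were among the 13 cytosolic enzymes with a window, and 0 of 14 mitochondrial enzymes held them. The sites are shown because they split the classes, Iars by the rule for named genes and 1 site of each of the others beside it. Each is written 5′ to 3′ on the strand of the gene from RefSeq (GRCm38.p6), with the match in capitals, which reads as the reverse complement of TGATGNAA in all but Yars.
Iars, plus strand, chr13:49682126-49682155: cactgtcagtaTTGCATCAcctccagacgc
Gars, plus strand, chr6:55037960-55037989: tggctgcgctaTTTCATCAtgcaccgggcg
Tars, minus strand, chr15:11399655-11399684: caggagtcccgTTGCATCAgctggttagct
Yars, plus strand, chr4:129189895-129189924: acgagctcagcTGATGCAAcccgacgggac
Aars, plus strand, chr8:111033840-111033869: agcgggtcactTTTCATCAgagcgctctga

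The matches shown begin 30 bases before the start in Gars and 15 before in Tars, and 8, 4 and 10 bases after it in Iars, Yars and Aars. Of these 5 genes, in the cytoplasm Yars passed as lower, Aars and Gars had log2 changes of -0.26 and -0.33 that did not pass, and Iars and Tars had 0.27 each. In the polysomes Gars and Yars passed as lower, and Aars, Iars and Tars had -0.50, -0.46 and -0.24. Part of the NRF1 site, GCGCANGCG, was held by 7 of 29 members (24.1%, against 7.03% of genes), 3 cytosolic and 4 mitochondrial. The E-box CACGTG was held by 5 (17.2%, against 8.09%), and the CRE letters TGACGTCA by 0 of 29, against 2.03% of genes. Cars, Hars, Lars, Nars, Rars, Vars, Wars, Hars2 and Pars2 had no window. A match is a description of the letters and not evidence of binding.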

How the data were processed

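The 38 members, the lists and the tests were chosen with earlier results of these data known. The authors made TruSeq Stranded mRNA libraries. Per the submitters' processing notes, bcl2fastq 2.18.0.12, STAR, HTSeq 0.5.3 and the build mm10 were used. The deposited values are raw read counts per gene, with 4 technical replicates for every one of the 12 libraries. Neither the annotation nor the strand setting is given in the sources used here. Exons of 15 members overlap those of another gene, and for 1 of these, Aars, the overlap is on the same strand. It covers 1326 bases of Exosc6, which had 0 counts in all 12 libraries, and its effect on the Aars counts was not tested. Of 50600 genes, 50376 were matched to GENCODE vM21, which gave symbols, exons, and length and GC content of the coding transcript with the longest coding sequence.

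Technical replicates, which differed by little more than sampling noise (chi-square over degrees of freedom from 1.018 to 1.042), were summed. For 3 of the 48 the labels disagree on the culture number. Genes were filtered with filterByExpr (13889 kept), scaled by TMM and fitted over all 12 libraries by glmQLFit in edgeR 4.0.16 (R 4.3.3), with a mean for each of the 4 groups and no block. Quasi-likelihood p-values from edgeR (glmQLFTest) were adjusted over all genes tested by the Benjamini-Hochberg method, and the limit was 0.05. The methods of the study name DESeq2, which was run as an alternative (1.42.0). CPM values are TMM-scaled, and log2 ratios per culture use a prior count of 2. Shared sequence was searched with blastn 2.17.0. The fit was tested on simulated counts.

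Cytoplasm and polysomes of a culture come from the same lysate and are paired: their deviations from group means correlated by 0.364, 0.452 and 0.645 in NT and by 0.0368, 0.199 and 0.229 in N6L cultures. Whether culture numbers shared between treatments mark anything common to them is not given in the sources used here. The same deviations correlated by 0.228 in the cytoplasm and 0.296 in the polysomes between N6L culture 1 and NT culture 1. Between N6L culture 2 and NT culture 2 they correlated by 0.0455 and 0.00756. Across unlike numbers the correlations ran from -0.238 to 0.205 and from -0.386 to 0.412. A batch common to cultures of both treatments was not tested. Values per library are given for the 3 largest and 3 smallest changes in the cytoplasm, the polysomes and the index, the 2 pairs that differ most in the cytoplasm, Eprs, Kars and Gars, and members that passed. Alternatives were other scalings and filters, DESeq2, technical replicate a alone, omission of the conflicting replicates or of single cultures, blocks, fits restricted to the compared groups, and per-library offsets for transcript length and GC content. Protein sequences were not used here. Some items are not reported here.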

Additional observations from a re-analysis of the deposited data

How the results depend on the processing

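Of the 5 members called in the cytoplasm, the 2 scaffolds remained when only library totals scaled the counts, and with no filter 3 passed, the scaffolds and Lars2. With library totals 28.4% of all genes passed, and with no filter 17% of 25915 genes. The count was 8 with DESeq2, where 17.5% of 25915 genes passed. It was also 8 with the culture number as a replicate block, where 34.1% of all genes did. Fits of only the groups compared gave 14 (13 lower, 1 higher), where 42.2% of all genes passed. The length and GC correction gave 18, where 30% did. Leaving out a culture gave 2 to 8, where 9.24% to 28.7% of all genes passed. In the polysomes the 6 calls became 3 with library totals, 10 with DESeq2, 16 with the length and GC correction and 0 to 10 without a culture. The shares of all genes were 10% with library totals, 7.84% of 25915 with DESeq2 and 21.4% with the correction. Without a culture they were 1.04% to 11.2%. With only the groups compared 0 were called by edgeR, where 2.46% of all genes passed. There 10 members had an unadjusted p under 0.05, beside 2610 of 13351 genes. For polysome against cytoplasm in N6L cultures the 10 calls became 4 with the length and GC correction (of which 2, Eprs and Iars, were among the 10), 4 with only the groups compared, 19 with the culture as a replicate block, 10 with both the block and that correction, and 1 to 15 without a culture. Of all genes 17.6%, 33.2%, 53.7% and 33.5% passed in these settings, in that order, and 8.22% to 41.8% without a culture. The block, which follows the pairing of fractions, gave 0 calls for the index and 0 for NT cultures. In the index 1 member, Eprs, passed with no filter. Scaling by library totals moved the median of all genes to 0.19 in the cytoplasm and 0.09 in the polysomes. With it the cytosolic median in the cytoplasm was -0.08 and the mitochondrial medians were -0.07 in the cytoplasm and 0.05 in the polysomes, so that the last changed sign. The length and GC correction gave a cytosolic median of -0.33 in the cytoplasm and a mitochondrial one of -0.15 in the polysomes. The mitochondrial median in the cytoplasm was -0.17 with no filter, -0.30 with technical replicate a alone and -0.25 with only the groups compared, and leaving out a culture moved it to between -0.23 and -0.16 and the polysomal one to between -0.16 and -0.04. Among all 38 members, 11 changed sign under some alternative in the cytoplasm, 11 in the polysomes, 12 in the N6L ratio and 11 in the index, and of these Aimp2, Mars2 and Nars2 in the N6L ratio were called before or after. Among the 3 highest and 3 lowest values and the calls of each comparison they were Iars2 in the cytoplasm (-0.06) and the ratio of Aimp2 in N6L cultures (-0.05, and -0.05 with the block) under the length and GC correction, Hars2 in the polysomes without N6L culture 1 (-0.03, where leaving out any culture gave -0.03 to 0.26) and Sars2 in the polysomes without N6L culture 3 (-0.04, of a range up to 0.32). For other changes, the cause was not tested. With 3 cultures an arm and 1 library of each kind per culture, no exact test over cultures can reach 0.05.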
